A study of Mus musculus with 36 samples.

Results

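Livers of decitabine-treated mice of genotype Tet1 -/- YAP Tg were compared with livers of control mice by RNA sequencing. The comparison took every library that carries either label, 3 decitabine libraries and 3 control libraries, which are 6 of the 12 RNA libraries and 6 of the 36 samples in the series. The study asked how the YAP transgene acts on the liver with and without Tet1, and whether decitabine changes the outcome where Tet1 is missing. All mice were C57BL/6 and received doxycycline at 50 mg/L in the drinking water, started either in young mice or through the nursing mothers of newborn pups. Controls were wild type mice on doxycycline. The treated mice carried the doxycycline-inducible YAP transgene, were labelled as Tet1 knockouts, and received 0.5 mg/kg decitabine by intraperitoneal injection each day for 10 days at an age of 1 month. No control mice received decitabine, and an age was at hand only for the treated mice. The transgene, the Tet1 genotype, the drug, any difference in age and the way these libraries were quantified cannot be told apart here. The labels do not say which part of Tet1 is deleted, which species the transgene comes from, which promoter drives it, or whether each library is a separate animal, so that p-values measure the spread between libraries, which may be technical. The samples of the other assays in the series were not analysed here.

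YAP is a transcriptional co-activator that has no DNA-binding domain of its own and acts mainly through the TEAD factors. The MST and LATS kinases of the Hippo pathway keep it out of the nucleus, and in mouse liver its activation drives growth and loss of the mature hepatocyte state. TET1 oxidises 5-methylcytosine, a step towards removal of DNA methylation. Decitabine is a deoxycytidine analogue that cells phosphorylate and build into DNA, where it traps DNA methyltransferases, so that methylation is lost as cells divide.

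Reads recovered from the deposited values numbered 19986112, 25067861 and 19954131 in controls 1, 2 and 3 and 25787084, 31723645 and 20686775 in decitabine libraries 1, 2 and 3. Levels below are normalised reads (RPM with a scaling factor), that is, reads divided by the library total and a trimmed-mean (TMM) factor, and they are not corrected for gene length. Controls 1 and 3 were nearly alike, with a coefficient of variation beyond sampling noise of 0.0218 between them, against 0.134 and 0.123 for their pairs with control 2 and 0.161 to 0.247 among the decitabine libraries. The decitabine columns are in another unit than all the other libraries, and some genes in them were very low. Gapdh, a glycolytic enzyme used as a loading control, stood at 1.40, 1.76 and 1.495 in the decitabine libraries, against 345 to 546 in the 9 other RNA libraries. In all, 155 genes stood more than 4 times below their level in all 9 other libraries, 39 of them ribosomal protein genes (Rpl or Rps), and 9 genes stood more than 4 times above it. Decitabine reads were recovered together with a gene length, and a length too short by a whole factor makes them too small. Among the 155, the recovered length was 251 bases for Sord and 407 for Ugdh. How much the recovery or a difference in counting contributed was not tested. Genes among the 155 are named as such where they occur. A gene that was already low in YAP Tg or untreated Tet1 KO YAP Tg libraries could not be marked in this way, whatever its counting. Strand use in counting is not given in the sources used here, so genes whose span overlaps another gene are uncertain. Among the genes named here these are Gpc3, Mup7, Mup2, Mup11, Gm2083, Mup14, Mup15, Mup17, Elovl3, Cyp2c29, Myof, Ankrd1, Crim1, Dock5, Arhgef17, Tdg, Gadd45a, Tet3, Zbtb38, Nt5c2, Sycp3, H19, Peg3, Mest, Igf2r, Igf2, Meg3, Rian, Snrpn, Gnas, Ifit2, Cdc20, Kif20a, Ccna2, Ddit3, Igf2bp1, Hmga2, Nr1i3, Cyp2c70, Abcc4, Ass1, Sds, Got1, Me1, Scd1, Srebf1, Pcx, Glul, Rnf43, Acta2, Stab1, Egfl7, Alas2, Hba-a1, Hba-a2, Xist and Nnat. The hepatocyte gene Alb, which encodes serum albumin, was high in both groups. It stood at 91801, 112222 and 100423 in the controls and 107544, 95658 and 114609 in the decitabine libraries. Other hepatocyte markers were lower, among them Ttr (log2 difference -1.98) and Ahsg (-0.80), while Trf was higher (2.13).

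The decitabine-treated livers showed a broad shift in gene expression. Most listed genes of cell division, macrophages and fetal liver and 12 of 22 YAP targets were higher, while most listed genes of drug metabolism, bile acid handling, amino acid breakdown and lipid synthesis were lower. Of 13424 genes tested with limma, 4167 were higher (31.0%) and 3336 lower (24.9%) at a Benjamini-Hochberg adjusted p under 0.05, so that 55.9% of all genes were called and any list has to be read against that background. The 3 values of one group did not overlap the 3 of the other for 63.8% of genes. By at least 2-fold, 2357 genes were higher and 1858 lower, and the median log2 difference of all genes tested was 0.10. The split between directions rests on the scaling, since 55.5% of calls were higher here, 74.4% with library totals alone and 79.2% with both groups per gene length (TPM).

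**Figure D1:**
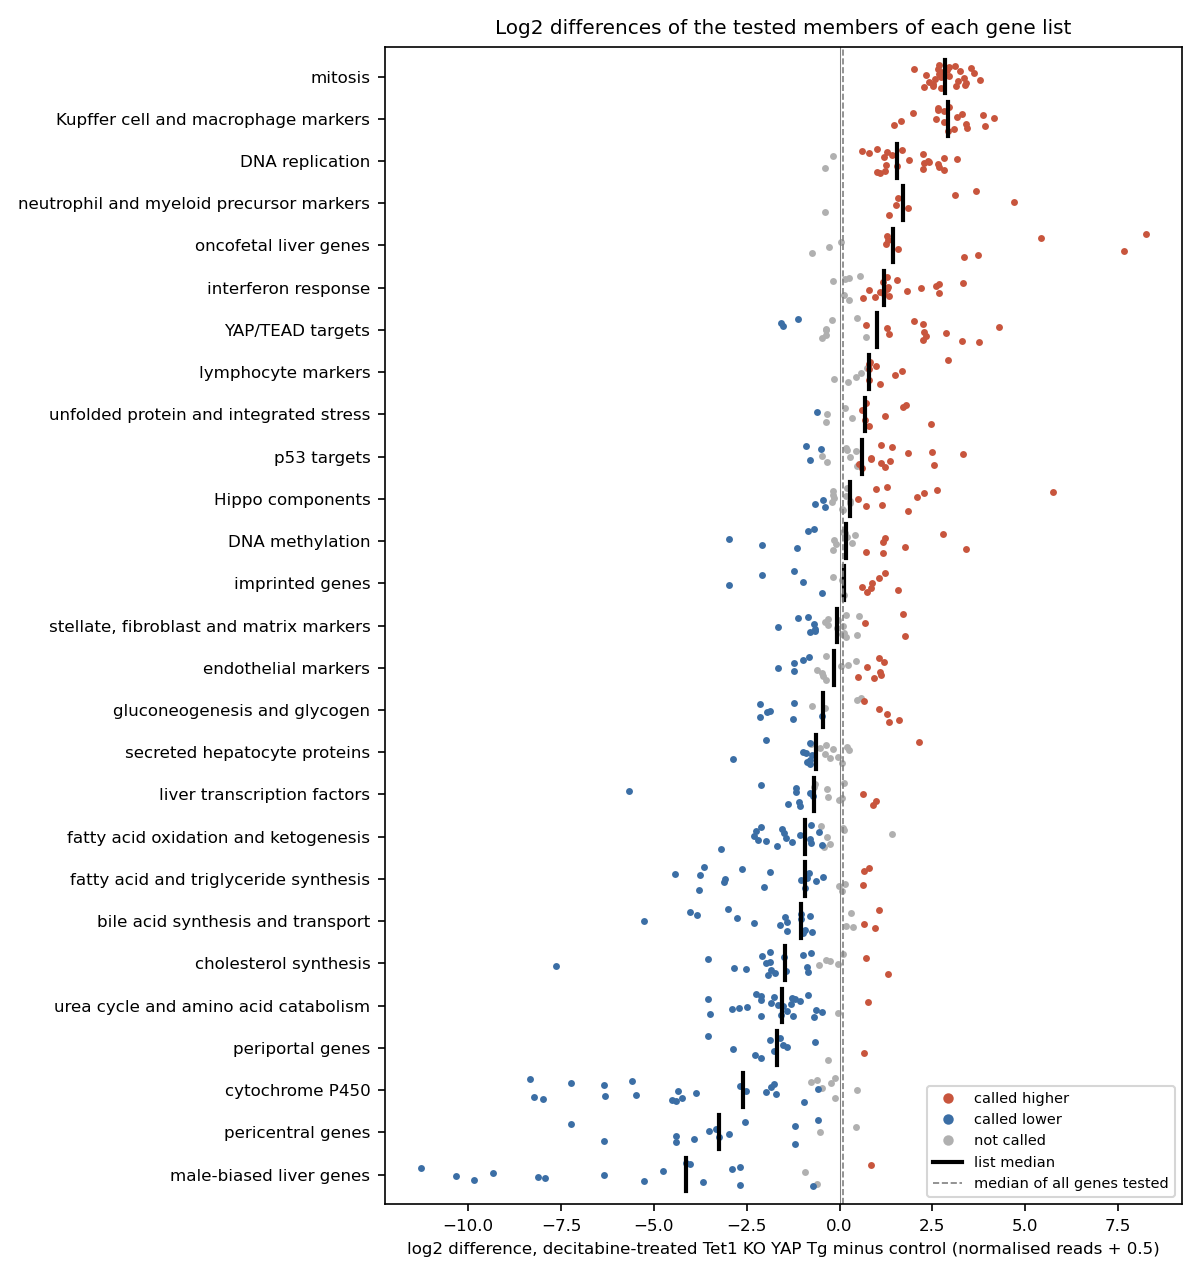
Log2 difference (x axis, decitabine-treated Tet1 KO YAP Tg minus control, on normalised reads + 0.5) of each tested member of 27 gene lists (rows); each point is a gene, red where called higher, blue where called lower and grey where not called, with the list median as a black bar and the median of all genes tested (0.10) as a dashed line. All 26 mitosis genes and all 18 macrophage markers lie to the right of 0, while the pericentral and male-biased lists have medians of -3.24 and -4.14.

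Among genes whose group values did not overlap and whose higher group averaged at least 5 normalised reads, Serpina3c had the largest rise. This member of the antichymotrypsin cluster of serine protease inhibitors (chromosome 12, 104146906 to 104153872, minus strand, mm10) stood at 0.471, 0.555 and 0.301 in the controls and 484, 374 and 324 in the decitabine libraries, a log2 difference of 8.70 (SE 0.20, adjusted p = 1.33e-08). Fam83b, which encodes a scaffold protein of the FAM83 family, followed at 0.0589, 0.0462 and 0.301 against 206, 212 and 161 (log2 difference 8.26, SE 0.21). Both were near 0 in every control library and above 100 in every decitabine library. Fgfbp1, a secreted protein that binds fibroblast growth factors, was without reads in all controls and had 22.8, 35.8 and 95.0 normalised reads in the decitabine libraries, at least 879-fold higher with a floor of 3 reads over the control group. Sftpd, which encodes surfactant protein D, stood at 0.471, 0.139 and 0.361 against 44.2, 44.5 and 143. Spink3, Gpc3, Fads3 (a fatty acid desaturase family member), D630045M09Rik and H2-Q1 were also among the 10 largest rises, and H2-Q1 has near-identical relatives in the class I histocompatibility cluster among which reads may be split.

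The 10 largest falls were led by the major urinary protein genes, male-biased pheromone carriers made in the liver. Mup7 (chromosome 4) stood at 1407, 1937 and 1438 in the controls and 0.477, 0.0279 and 0 in the decitabine libraries, a log2 difference of -11.27 (SE 0.26, adjusted p = 1.47e-08). Mup2 held 18204 reads over the controls and 1 read over the decitabine libraries, a ratio of 28530 with a 95% interval of 5121 to 1126865 from the exact Poisson interval of that read. Such intervals and floors cover counting error only. These genes are near-identical copies, so levels of single members are uncertain. Mup11, Gm2083, Mup14, Mup15 and Mup17 were also among the 10, but copies that share reads are not independent of each other. Whether reads shared by copies were counted alike in both groups was not tested. Elovl3, a male-biased fatty acid elongase, stood at 547, 644 and 560 against 0.331, 0.0279 and 0.0854, with a log2 difference of -9.84 (SE 0.20). The last of the 10 were the P450 genes Cyp4a14 (332, 111 and 346 against 0.404, 0.0837 and 0.213) and Cyp2c29 (2223, 2956 and 2338 against 14, 4.80 and 6.79). In all 10 genes every control lay far above every decitabine library.

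Yap1 itself was higher in the decitabine-treated livers. Its levels were 59.1, 48.9 and 59.6 in the controls and 91.1, 180 and 152 in the decitabine libraries, a log2 difference of 1.28 (SE 0.24, adjusted p = 0.00177) with no overlap. The table gives 1 value a gene, so transgene and endogenous reads cannot be told apart. Tet1 was low in both groups, at 0.943, 0.786 and 0.361 in the controls and 1.65, 1.78 and 3.63 in the decitabine libraries, and was called higher (log2 difference 1.22, SE 0.30, adjusted p = 0.00784). These are whole-gene values and the deleted part is not given, so they do not check the knockout label.

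Among the YAP/TEAD target genes that were called, most were higher in the decitabine-treated transgenic livers than in the controls. Of 23 genes listed, 22 were tested, 12 were higher, 3 lower and 7 not called. The share called was 68.2%, against 55.9% of all genes, and the median log2 difference was 1.00, against 0.10 over all genes. Foxf2 had no read in any control or decitabine library. Gadd45b, a stress-induced gene that takes part in DNA demethylation, showed the largest rise of the list, from 1.59, 1.43 and 1.81 to 41.7, 50.7 and 31.9 (log2 difference 4.29, SE 0.21, adjusted p = 7.68e-07). Ajuba, an adaptor that inhibits LATS kinases, rose from 3.54, 4.76 and 3.73 to 51.8, 72.0 and 56.8 (log2 difference 3.75, SE 0.19). For both, the decitabine libraries were far above all controls. Amotl2, an angiomotin that binds YAP and is induced by it, stood at 20.8, 17.8 and 23.1 against 151, 315 and 181 (log2 difference 3.29, SE 0.26, adjusted p = 9.83e-06). Ctgf, a secreted matricellular protein and the most used readout of YAP, stood at 22.9, 12.8 and 21.7 against 99.3, 158 and 164 (log2 difference 2.85, SE 0.27, adjusted p = 2.80e-05). Cyr61, its close relative, stood at 6.37, 5.13 and 6.14 against 17.9, 38.6 and 40.8 (log2 difference 2.28, SE 0.30, adjusted p = 0.000209). Decitabine library 1 was the lowest of its group in Amotl2, Ctgf and Cyr61, yet above every control. The receptor tyrosine kinase gene Axl (log2 difference 2.33), the membrane repair gene Myof (2.26) and the kinase gene Nuak2 (2.01) were also higher.

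Ankrd1, a nuclear ankyrin repeat protein that rises sharply with active YAP, was the most variable target. It stood at 0.766, 0.185 and 0.361 in the controls and 1.32, 3.35 and 10.8 in the decitabine libraries, a log2 difference of 2.24 (SE 0.57, adjusted p = 0.00843). The value was 2.86 without decitabine library 1 and 1.54 without decitabine library 3. Crim1, which encodes a regulator of growth factor release (log2 difference 1.34), Fjx1 (1.29) and the kinase gene Lats2 (0.72) completed the higher targets. Nt5e, which encodes the ectonucleotidase CD73, fell from 23.6, 19.2 and 24.0 to 12, 5.10 and 5.85 (log2 difference -1.57, SE 0.29, adjusted p = 0.00158). Igfbp3, a carrier of insulin-like growth factors, and Rbms3, an RNA-binding protein, were lower by -1.51 and -1.12 on the log2 scale. None of these 3 would be called lower if the recovered decitabine reads of the gene were too small by a factor of 2. Asap1, Tgfb2, Ptpn14, Ccdc80, F3, Dock5 and Arhgef17 were not called, with log2 differences from -0.46 to 0.70.

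**Figure D2:**
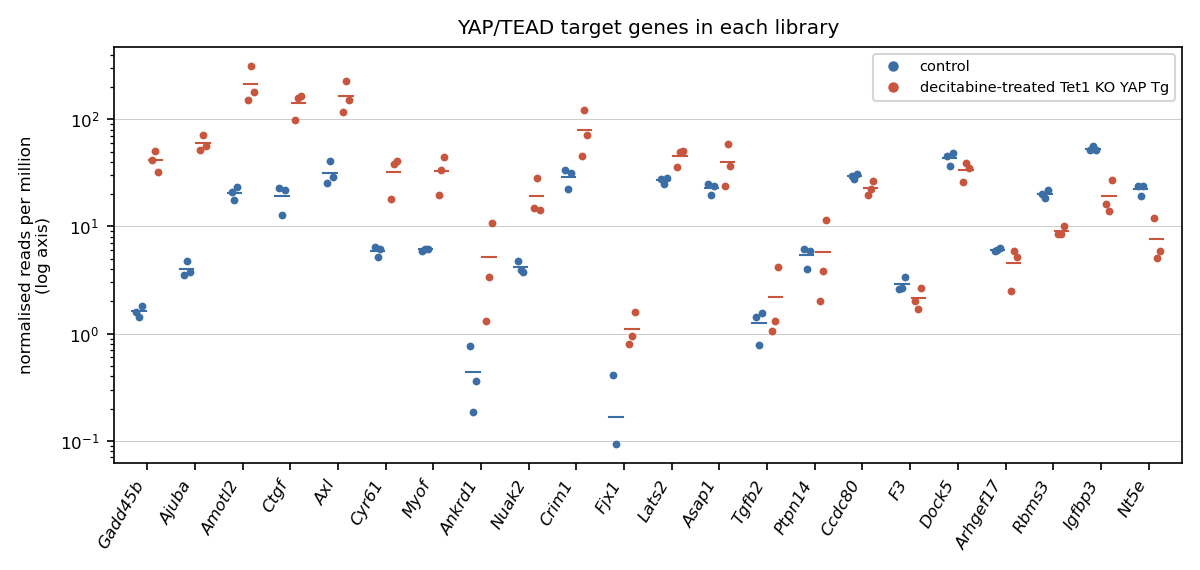
Normalised reads, in RPM (log axis) of the 22 tested YAP/TEAD targets in each library, ordered by their log2 difference; points are the 3 control (blue) and 3 decitabine (red) libraries and bars are group means. Fjx1 in control 3 is at 0 and is not drawn. The groups are fully apart in the 12 higher and 3 lower targets and overlap in 5 of the 7 that were not called. Over all genes tested the groups did not overlap in 63.8%.

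Promoter windows show where TEAD-type motifs lie in these genes. RefSeq windows (GRCm38.p6, 250 bases before to 50 after the start) were at hand for 16 of the 23 targets, and Ctgf was not among them. The letters GGAATG or their reverse complement CATTCC, the core of the TEAD motif, were sought on both strands and are in capitals below. The 4 windows shown are of targets that were called higher and hold a match, with the window on mm10 coordinates. Ajuba's window is chr14:54577612-54577911 on the minus strand, Amotl2's chr9:102717554-102717853 on the plus strand, Cyr61's chr3:145649936-145650235 on the minus strand and Ankrd1's chr19:36119795-36120094 on the minus strand.
Ajuba: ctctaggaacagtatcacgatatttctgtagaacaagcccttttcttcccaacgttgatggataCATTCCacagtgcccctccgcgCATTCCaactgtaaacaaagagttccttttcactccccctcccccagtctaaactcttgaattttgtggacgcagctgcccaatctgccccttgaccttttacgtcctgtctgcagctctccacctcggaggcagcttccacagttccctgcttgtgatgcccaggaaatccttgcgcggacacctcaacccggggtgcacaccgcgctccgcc
Amotl2: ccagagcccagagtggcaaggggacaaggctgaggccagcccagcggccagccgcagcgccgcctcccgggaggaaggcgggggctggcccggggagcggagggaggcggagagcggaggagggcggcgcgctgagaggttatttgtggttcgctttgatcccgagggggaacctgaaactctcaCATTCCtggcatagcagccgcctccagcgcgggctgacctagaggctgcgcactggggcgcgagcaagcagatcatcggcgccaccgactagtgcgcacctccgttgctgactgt
Cyr61: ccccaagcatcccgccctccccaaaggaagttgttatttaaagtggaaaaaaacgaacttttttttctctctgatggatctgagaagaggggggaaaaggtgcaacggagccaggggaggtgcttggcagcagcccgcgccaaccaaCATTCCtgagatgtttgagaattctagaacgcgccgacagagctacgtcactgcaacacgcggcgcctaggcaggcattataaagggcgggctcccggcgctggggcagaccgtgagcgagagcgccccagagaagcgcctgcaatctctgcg
Ankrd1: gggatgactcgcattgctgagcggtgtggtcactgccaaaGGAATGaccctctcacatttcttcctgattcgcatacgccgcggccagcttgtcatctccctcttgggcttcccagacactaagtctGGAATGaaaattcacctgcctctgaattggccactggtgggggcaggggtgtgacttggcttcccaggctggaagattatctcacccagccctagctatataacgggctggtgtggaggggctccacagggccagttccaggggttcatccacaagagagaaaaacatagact

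The matches begin 186 and 164 bases before the gene start in Ajuba, 65 before it in Amotl2, 103 before it in Cyr61, and 210 and 123 before it in Ankrd1. In all, 8 of the 16 windows (50%) hold a match, against 12.1% of the windows of 10610 tested genes and 14.7% of 32851 windows in the RefSeq table. Of the 8 targets with a match, 7 were higher (Ajuba, Amotl2, Ankrd1, Axl, Crim1, Cyr61 and Lats2) and 1, Ptpn14, was not called. Of the 8 without one, 2 were higher (Gadd45b and Myof), 3 were lower (Igfbp3, Nt5e and Rbms3), 2 were not called and Foxf2 was not tested. The targets were listed as known YAP/TEAD genes, so their motif share describes the list, and no match says only that these letters are not in the window. Across all tested genes the share with a match was 12.4% of higher, 12.1% of lower and 12% of not called genes. The median number of CpG sites a window was 19 in higher, 20 in lower and 21 in not called genes.

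Among components of the Hippo pathway the share of called genes was near that of all genes. Of 23 tested, 10 were higher, 3 lower and 10 not called (56.5% called, against 55.9% of all genes), with a median log2 difference of 0.27. Vgll3, a cofactor that binds TEADs, had by far the largest change, from 0.177, 0.185 and 0.301 to 22.6, 56.7 and 43.0 (log2 difference 5.75, SE 0.31, adjusted p = 1.44e-06). Wwc1, which encodes the upstream activator KIBRA and is itself a YAP target, stood at 23.9, 25.8 and 26.0 against 122, 289 and 112 (log2 difference 2.63, SE 0.32). In both genes the decitabine libraries were well apart from the controls, and library 2 was the highest. Of the TEAD factors, Tead4 rose from 0.530, 0.416 and 0.542 to 3.23, 4.66 and 5.42 (log2 difference 2.29, SE 0.22) and Tead1 from 14.3, 10.2 and 15.0 to 37.2, 108 and 45.6 (2.09, SE 0.36). Tead2 and Tead3 were not called, at 0.16 and -0.16. Amot (1.84), the LATS co-activator gene Mob1a (1.14) and Wwc2 (0.99) were higher, and Wwc2 lost its call without control 2 (0.88, adjusted p = 0.0697). Stk4, which encodes the kinase MST1, was called at 0.50 and lost the call without control 1, control 3 or decitabine library 3 (adjusted p = 0.0676, 0.0747 and 0.0508). Yap1 and Lats2, given above, complete the higher components, and the YAP paralogue gene Wwtr1 (TAZ) was not called (0.21). Lower were Mob1b (-0.67), Stk3 (-0.43), which encodes MST2, and Lats1 (-0.39). The calls of Stk3 and Lats1 each fell away in 5 of the 6 fits that leave out a library, all but that without decitabine library 1 for Stk3 and library 2 for Lats1, and both differences turned positive per gene length (TPM), at 0.05 and 0.10.

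Dnmt1, Uhrf1 and Dnmt3a, which maintain or write DNA methylation, were higher, while Mbd1 and Tdg, a reader and an excision enzyme, were lower. Of 20 genes of DNA methylation tested, 7 were higher, 5 lower and 8 not called, with a median log2 difference of 0.17. The share called, 60%, was near the 55.9% of all genes, and the median of all genes was 0.10. Dnmt1, the maintenance methyltransferase that decitabine traps, stood at 18.3, 21.8 and 17.0 against 36.3, 54.6 and 40.8 (log2 difference 1.17, SE 0.19, adjusted p = 0.000736). Uhrf1, which recruits DNMT1 to newly replicated DNA, stood at 1.65, 2.45 and 0.542 against 14.5, 16.4 and 8.07 (log2 difference 2.79, SE 0.40, adjusted p = 0.000349). Of 25 DNA replication genes, 23 were higher in the same libraries and 2, among them Pcna, were not called, and their part in these values was not tested. The de novo methyltransferase gene Dnmt3a was higher by 0.70 (SE 0.17, adjusted p = 0.00728), and Dnmt3b was not called (-0.19). Gadd45a, a stress-induced adaptor in demethylation, rose from 1.12, 0.786 and 0.903 to 21.3, 15.1 and 9.52 (log2 difference 3.40, SE 0.28). Idh2 (1.76), the mitochondrial source of the TET cofactor 2-oxoglutarate, and the glycosylase gene Mbd4 (1.17) were higher too, while Tet2 and Tet3 were not called at 0.19 and 0.41.

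Mbd1, a reader of methylated CpG sites, fell from 80.5, 82.2 and 84.0 to 15.9, 23.0 and 18.4 (log2 difference -2.10, SE 0.16, adjusted p = 1.00e-05). Tdg, the glycosylase that excises oxidised methylcytosine, fell from 17.9, 21.4 and 19.2 to 1.91, 2.48 and 1.79, but it is among the 155 genes that stood apart in the decitabine libraries from all 9 others. Idh1 (-1.14), Zbtb38 (-0.85) and Zbtb4 (-0.68), the last pair encoding zinc finger readers of methylated DNA, completed the lower genes. Zbtb4 lost its call without control 3 (-0.65, adjusted p = 0.0568). Only 2 of the 5 lower genes would remain called if decitabine reads were doubled.

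Of 13 genes of decitabine handling tested, 7 were higher, 1 lower and 5 not called, with a median log2 difference of 0.73. The share called, 61.5%, was near the 55.9% of all genes. Dck, the deoxycytidine kinase that makes the first phosphorylation of the drug, stood at 5.13, 8.0 and 5.00 against 32.5, 28.5 and 18.4 (log2 difference 2.04, SE 0.26, adjusted p = 0.000178). Slc28a2, a concentrative nucleoside transporter gene, stood at 1.18, 0.971 and 0.903 against 19.2, 13.1 and 15.0 (log2 difference 3.41, SE 0.20). In both genes the groups were wide apart. Samhd1, a triphosphohydrolase that cleaves the active triphosphate, was higher by 1.55 (SE 0.16), and the ribonucleotide reductase genes Rrm1 and Rrm2 by 1.49 and 1.58. Dctd, the deoxycytidylate deaminase gene (1.13), and the nucleotidase gene Nt5c2 (0.73) were higher, and the kinase gene Cmpk1 was lower (-0.86). Cda, the deaminase that inactivates decitabine, stood at 1.65, 5.78 and 2.05 against 3.71, 3.93 and 3.71 and was not called (log2 difference 0.40, adjusted p = 0.378). The equilibrative transporter gene Slc29a1 was not called either (-0.37, adjusted p = 0.0557).

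Germline genes, which DNA methylation keeps silent in somatic tissue, were barely detected in either group. Of 24 listed germline genes silenced by promoter methylation, 14 were in the table and only Brdt, a testis bromodomain gene, passed the filter on low values, falling from 2.95, 1.67 and 1.75 to 0.588, 0.390 and 0.470 (log2 difference -1.39, SE 0.23). The summed level of the 14 was 2.41 to 3.77 normalised reads in the controls and 1.41 to 2.28 in the decitabine libraries. At this depth Ddx4, Dazl, Sycp3 and Mael remained under 0.5 normalised reads in all 6 libraries. Of 15 imprinted genes tested, 7 were higher, 5 lower and 3 not called (80% called, against 55.9% of all genes, median 0.11). H19, a maternally expressed RNA that is high in fetal liver, stood at 3.30, 1.85 and 2.23 against 14.7, 8.78 and 4.01 (log2 difference 1.57, SE 0.40, adjusted p = 0.00911), lowest in decitabine library 3. Sgce (1.24), Peg3 (1.06), Mest (0.86), Igf2r (0.85), Grb10 (0.75) and Impact (0.61) were the others called higher, and Igf2 did not pass the filter. Peg3, whose groups overlap, lost its call in 5 of the 6 fits that leave out a library, all but that without decitabine library 1. Mest lost it without control 1, control 3 or decitabine library 2, Grb10 without control 3 or decitabine library 3, and Igf2r without decitabine library 3. Meg3 and Rian, noncoding RNAs of the Dlk1-Dio3 domain, were lower. Meg3 stood at 7.37, 9.66 and 1.26 against 0.110, 0.251 and 0.128, with a log2 difference of -2.98 that became -3.76 without control 3. Snrpn (-1.23), Ndn (-0.98) and Gnas (-0.48) were also lower, and Gnas kept its call only without decitabine library 2 and turned to 0.01 per gene length (TPM).

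Interferon-stimulated genes were mostly higher. Of 23 tested, 17 were higher, 0 lower and 6 not called, with a median log2 difference of 1.20. The genes of the 2′-5′ oligoadenylate synthetases, which sense double-stranded RNA, led the list. Oas3 stood at 1.77, 2.91 and 2.05 against 26.5, 40.1 and 17.7 (log2 difference 3.33, SE 0.30, adjusted p = 2.22e-05), and Oas2 and Oas1a were higher by 2.69 and 2.61. Ifit2, an inhibitor of viral translation, stood at 17.8, 21.9 and 16.4 against 177, 102 and 99.0 (log2 difference 2.67, SE 0.24). All decitabine libraries were above all controls in these genes. Irf7, the regulator that amplifies the response, was higher by 1.81 (SE 0.17). The signal transducer gene Stat2 (0.25), the sensor gene Ifih1 (0.11), Bst2 (0.25), Zbp1 (0.56) and Oasl2 (-0.18) were among those not called. All 18 macrophage markers rose in the same libraries, from a summed level of 620 to 840 normalised reads in the controls to 4922 to 5740, and their part in the interferon values was not tested.

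Nearly all listed cell cycle genes were higher. All 26 mitosis genes were higher, with a median log2 difference of 2.84 and a range from 2.00 to 3.77. Mki67, the common proliferation marker, stood at 18.0, 23.6 and 12.6 against 190, 161 and 159 (log2 difference 3.24, SE 0.22, adjusted p = 4.65e-06). Top2a, the topoisomerase that untangles chromosomes, stood at 9.78, 13.9 and 4.58 against 142, 84.8 and 98.1 (log2 difference 3.55, SE 0.36). Cdc20, which switches on the anaphase-promoting complex, stood at 0.471, 1.80 and 0.361 against 13.5, 17.0 and 19.6 (log2 difference 3.77). Kif20a (3.62) and Ccna2 (3.41) were the next largest. In each of these genes control 2 was the highest control and still far below the decitabine libraries. Of 25 DNA replication genes, 23 were higher and 0 lower, with a median of 1.54. The replicative helicase gene Mcm5 stood at 3.06, 4.90 and 3.43 against 42.5, 39.1 and 31.8 (log2 difference 3.17, SE 0.21), and Mcm6 (2.82), the licensing factor gene Cdc6 (2.80) and E2f1 (2.68) followed. Pcna, the sliding clamp gene, was among the 2 not called (-0.18). In bulk tissue, more dividing cells and more RNA of these genes per cell cannot be told apart, and the same holds for every cell type marker below.

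Targets of p53 and genes of the stress responses were higher in part. Of 23 p53 targets, 13 were higher, 3 lower and 7 not called (69.6% called, against 55.9% of all genes, median log2 difference 0.60). Phlda3, an inhibitor of AKT, stood at 0.177, 0.139 and 0.301 against 5.62, 5.41 and 9.01 (log2 difference 3.32, SE 0.24, adjusted p = 5.96e-06). The antiproliferative gene Btg2 was higher by 2.54 (SE 0.14), the pro-apoptotic gene Pmaip1 by 2.48 and Plk2 by 1.83. Cdkn1a, the cell cycle inhibitor p21, stood at 9.43, 9.53 and 11.1 against 17.3, 39.3 and 16.4 (log2 difference 1.12, SE 0.31, adjusted p = 0.0128). Mdm2, the feedback inhibitor of p53, was not called (0.27, adjusted p = 0.131). Trp53inp1 (-0.90), Ei24 (-0.79) and Sesn1 (-0.50) were lower, none of them if decitabine reads were doubled. Of 13 genes of the unfolded protein and integrated stress responses, 8 were higher, 1 lower and 4 not called (69.2% called, median 0.70). The rises were led by Atf3 (2.46), Trib3 (1.80), Sdf2l1 (1.72) and Ddit3 (1.23), while Herpud1 was lower (-0.61). Of 12 oxidative stress and glutathione genes, 1 was higher (Nqo1, 1.11), 8 lower and 3 not called, and 4 would remain lower if decitabine reads were doubled. Ugdh had the largest fall (-4.35), but it is among the 155 genes that stood apart from all 9 other libraries. Gclc, the rate-limiting enzyme of glutathione synthesis, was lower, at 689, 622 and 710 against 152, 100 and 138 (log2 difference -2.39, SE 0.18).

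Fetal liver and liver tumour genes were among the strongest rises. Of 12 oncofetal genes tested, 9 were higher, 0 lower and 3 not called, with a median log2 difference of 1.44. Spink3, a trypsin inhibitor, stood at 0.236, 0.139 and 0.241 against 256, 137 and 277 (log2 difference 8.25, SE 0.27, adjusted p = 5.64e-08). Gpc3, a heparan sulfate proteoglycan used as a marker of hepatocellular carcinoma, stood at 1.89, 1.57 and 1.81 against 332, 517 and 542 (log2 difference 7.65, SE 0.20). Afp, the fetal counterpart of albumin, stood at 1.24, 2.54 and 1.56 against 20.5, 19.4 and 27.5 (log2 difference 3.35, SE 0.25, adjusted p = 7.64e-06). The groups were far apart in all of these. Ly6d (5.42), Akr1b7 (3.73) and the RNA-binding protein gene Igf2bp3 (1.31) were higher as well. Sox4 (1.29) and Igf2bp1 (1.25) were called, but Sox4 lost the call without any 1 control or decitabine library 3, and Igf2bp1 without control 2, control 3, decitabine library 2 or decitabine library 3. Igf2bp2, Hmga2 and Cd24a were not called (0.04, -0.29 and -0.75).

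Genes of the mature hepatocyte were lower across most pathways, with exceptions among the secreted proteins. Decitabine reads that were recovered too small would make such falls too large, so each count below is followed by the number still called lower with all decitabine reads doubled. Of 19 liver transcription factors, 3 were higher, 9 lower (3 if doubled) and 7 not called, with a median log2 difference of -0.68. The share called was 63.2%, against 55.9% of all genes. Nr1i3, which encodes the xenobiotic receptor CAR, stood at 51.2, 70.1 and 58.9 against 0.808, 0.474 and 0.769 (log2 difference -5.68, SE 0.20, adjusted p = 1.13e-07). Its recovered length of 707 bases is short for a nuclear receptor transcript, and with doubled reads the difference was -5.03. Ppara, the fatty acid receptor that controls oxidation genes, stood at 246, 279 and 273 against 56.8, 68.7 and 57.6 (log2 difference -2.12, SE 0.14). Neither gene's groups overlapped. Cebpb (-1.38), Nr1i2 (-1.18), the receptor PXR, and the nuclear receptor gene Nr5a2 (-1.17) were lower. Hnf4a, the main regulator of hepatocyte identity, stood at 610, 480 and 652 against 298, 452 and 324 (log2 difference -0.71, SE 0.20, adjusted p = 0.0154) and would not be called if doubled (0.29). Foxa1 (0.99), Cebpa (0.90) and Nr1h3 (0.64) were higher.

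None of 28 cytochrome P450 genes tested was higher, 21 were lower (19 if doubled) and 7 were not called, with a median log2 difference of -2.61. Their summed level was 23847 to 24916 normalised reads in the controls and 2823 to 5070 in the decitabine libraries. Cyp2e1, which oxidises ethanol and small solvents, stood at 6957, 6950 and 7193 against 137, 129 and 36 (log2 difference -6.34, SE 0.44, adjusted p = 5.68e-06), with -5.72 without decitabine library 3 and -5.35 if doubled. Cyp3a11, the main drug-metabolising P450 of mouse liver, stood at 6374, 5722 and 6343 against 227, 11.5 and 24.8 (log2 difference -7.23, SE 0.86, adjusted p = 0.000122). It varied widely among the decitabine libraries, and the difference was -8.46 without decitabine library 1 and -6.34 without library 2. Cyp2a5 (-7.98) and Cyp1a2 (-4.41) fell as well. The Cyp2c genes are close copies among which reads may be split, so their single values are uncertain, and of these Cyp2c70 was not called (0.48). Cyp3a25 (-0.76) and Cyp4a12a (-0.60) were not called either, the last at 358, 380 and 32.0 in the decitabine libraries.

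Bile acid genes followed the same direction. Of 22 tested, 3 were higher, 16 lower (7 if doubled) and 3 not called, with a median log2 difference of -1.04. Cyp7b1, an oxysterol hydroxylase of the alternative pathway, stood at 224, 443 and 228 against 7.46, 5.66 and 7.60 (log2 difference -5.27, SE 0.26). The main sinusoidal bile acid importer gene Slc10a1 (NTCP) stood at 445, 550 and 503 against 70.5, 35.2 and 16.4 (log2 difference -3.83, SE 0.42), and the organic anion transporter gene Slco1a1 fell by 4.04, or 4.67 without decitabine library 1. The groups did not overlap in any of them. Slco1b2 (-3.00) and Cyp7a1 (-1.41), the rate-limiting enzyme of the classical pathway, were lower, and Slco1a4 (1.06), Abcc4 (0.96) and Baat (0.65) were higher.

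Of 26 genes of the urea cycle and amino acid breakdown, 1 was higher, 24 lower (13 if doubled) and 1 not called, with a median log2 difference of -1.55. Ass1, argininosuccinate synthase, stood at 1872, 2058 and 2055 against 220, 219 and 116 (log2 difference -3.48, SE 0.25, adjusted p = 6.03e-06). Cps1, the entry enzyme of the same cycle, stood at 5504, 6096 and 5664 against 5916, 6159 and 4883 and was not called (-0.03, adjusted p = 0.920). The controls and decitabine libraries overlapped fully in Cps1 and not at all in Ass1. Sds, serine dehydratase, was lower by -3.55 (-2.62 if doubled), Gnmt, glycine N-methyltransferase, by -2.89 (-1.90 if doubled), Got1 by -2.70 and Arg1, arginase, by -2.11. Nags, which makes the activator of Cps1, was higher (0.78).

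Lipid synthesis genes were lower in most but not all steps. Of 24 cholesterol synthesis genes, 2 were higher, 17 lower (12 if doubled) and 5 not called (median -1.47). Hmgcs1, the first committed enzyme, stood at 1481, 1514 and 1457 against 302, 129 and 219 (log2 difference -2.86, SE 0.28), and Nsdhl was lower by -3.55. Idi1 had the largest fall (-7.64), but stood apart from all 9 other libraries like Gapdh. Of 21 genes of fatty acid and triglyceride synthesis, 3 were higher, 15 lower (9 if doubled) and 3 not called (median -0.94). Malic enzyme Me1 stood at 325, 180 and 343 against 12.3, 12.4 and 11.6 (log2 difference -4.43, SE 0.24), and the desaturase gene Scd1 at 11069, 5911 and 11614 against 2358, 1164 and 1178 (-2.62, SE 0.37). Acacb (-3.78), Lpin1 (-3.77) and Thrsp (-3.64, or -4.29 without decitabine library 1) were lower, and Srebf1, the regulator of the pathway, was higher (0.80, adjusted p = 0.0374).

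Of 24 genes of fatty acid oxidation and ketogenesis, 0 were higher, 17 lower (10 if doubled) and 7 not called (median log2 difference -0.93). Acaa1b (-3.18) and Ehhadh (-2.30), enzymes of peroxisomal oxidation and targets of PPARA, fell. Acaa1b stood at 477, 385 and 484 in the controls and 49.3, 58.0 and 40.3 in the decitabine libraries. Of 16 genes of gluconeogenesis and glycogen, 5 were higher, 7 lower (4 if doubled) and 4 not called, and the median of -0.44 turned to 0.05 per gene length (TPM). G6pc, the phosphatase that releases glucose, stood at 1115, 1400 and 1172 against 432, 211 and 238 (log2 difference -2.13, SE 0.26), and Pck1 was lower by -1.88 (-0.88 if doubled). Fbp1, which acts between them in the pathway, stood at 356, 516 and 384 against 1902, 1223 and 841 and was higher (1.60, SE 0.29, adjusted p = 0.00146). Pcx (1.05), which encodes pyruvate carboxylase, was higher too.

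**Figure D3:**
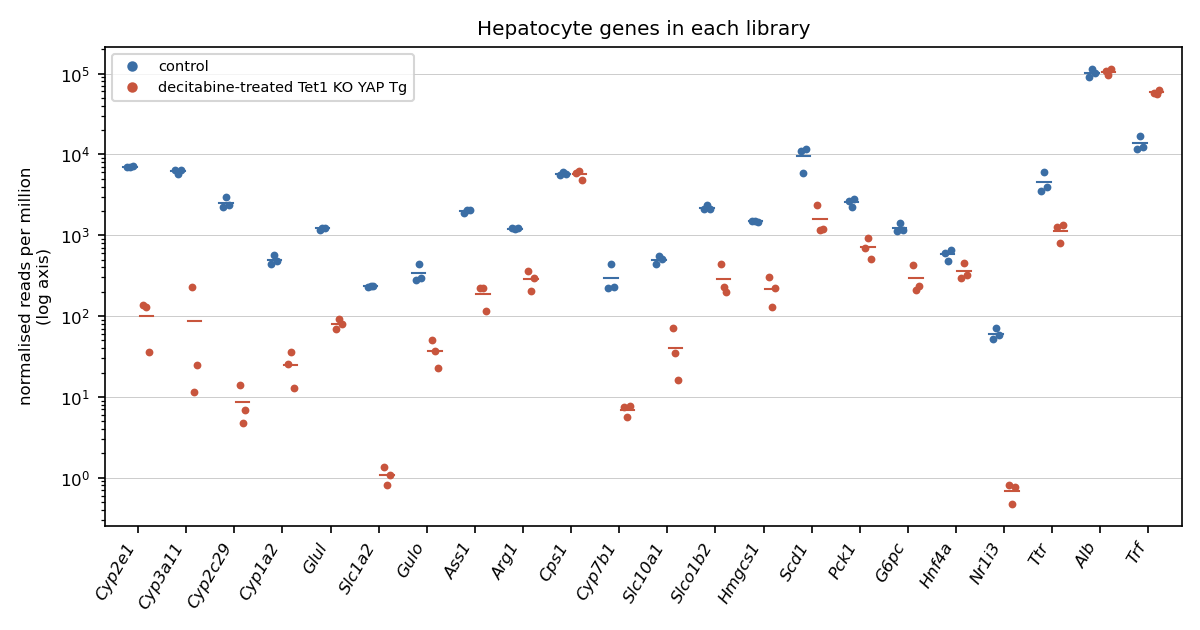
Normalised reads, in RPM (log axis) of 22 hepatocyte genes in each library; points are the 3 control (blue) and 3 decitabine (red) libraries and bars are group means. Drug metabolism, pericentral and bile acid transport genes are widely separated, Cps1 and Alb overlap, and Trf is higher in all 3 decitabine libraries.

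Genes of both liver zones were mostly lower. Pericentral genes, which surround the central vein and depend on WNT signals, numbered 15 tested, of which 0 were higher, 13 lower (10 if doubled) and 2 not called, with a median log2 difference of -3.24. Slc1a2, a glutamate transporter, stood at 230, 233 and 237 against 1.36, 0.809 and 1.07 (log2 difference -7.23, SE 0.17, adjusted p = 1.47e-08). Glul, glutamine synthetase, stood at 1174, 1244 and 1233 against 69.7, 91.7 and 78.7 (log2 difference -3.93, SE 0.15). The 3 values of each group lay close together in both. The WNT target genes Lgr5 (-2.99) and Axin2 (-1.20) were lower, while Rnf43 (0.45) and Nkd1 (-0.52) were not called. Of 12 periportal genes, 1 was higher (Ctsc, 0.66), 10 lower (6 if doubled) and 1 not called, with a median of -1.68. Etnppl was lower by -2.87 and the adhesion gene Cdh1 by -2.28 (-1.30 if doubled). No test compared the zones.

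Male-biased liver genes were lower in nearly every case. Of 19 tested, 1 was higher (Selenbp2, 0.84), 16 lower (15 if doubled) and 2 not called, with a median log2 difference of -4.14. Hsd3b5, a male-specific steroid dehydrogenase, stood at 225, 374 and 232 against 2.02, 0.502 and 0.0427 (log2 difference -7.92, SE 0.48). Of 8 female-biased genes tested, 4 were higher, 2 lower (1 if doubled) and 2 not called. Hao2, a peroxisomal hydroxyacid oxidase, stood at 0.236, 0.324 and 0.301 against 26.8, 3.40 and 4.83 (log2 difference 3.40, or 2.54 without decitabine library 1). Cux2, a female-biased repressor of male genes in mouse liver, was higher by 2.24 and Atp6v0d2 by 1.45, and Cyp2a4 was lower by -4.52. The Y-linked genes Ddx3y, Kdm5d, Uty and Eif2s3y were expressed in all 6 libraries, Ddx3y at 136 to 258 normalised reads, and were not called except Eif2s3y (-0.69), which lost its call without any 1 control or decitabine library 3.

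Genes of secreted plasma proteins were mixed. Of 20 tested, 1 was higher, 9 lower (2 if doubled) and 10 not called, with a median log2 difference of -0.64. The share called, 50%, was below the 55.9% of all genes. Alb was not called (0.06, SE 0.52, adjusted p = 0.929), and neither were Apob (-0.26), Fgb (0.26) and Fgg (-0.17). Trf, the plasma iron carrier transferrin, rose from 11740, 17014 and 12439 to 57900, 56429 and 63434 (log2 difference 2.13, SE 0.36, adjusted p = 0.00104). All 3 decitabine libraries were far above all 3 controls. Apoa2 (-2.87) and Ttr (-1.98), a carrier of thyroid hormone and retinol, had the largest falls. Of 20 acute phase genes, 7 were higher, 7 lower (4 if doubled) and 6 not called (70% called, median 0.20). Lcn2, which binds bacterial siderophores, stood at 2.95, 2.54 and 2.35 against 19.8, 14 and 96.5 (log2 difference 3.30, or 2.47 without decitabine library 3), and haptoglobin, Hp, was higher by 1.29. Orm1 fell from 877, 1017 and 892 to 160, 41.8 and 57.1 (log2 difference -3.67, SE 0.41), and the serum amyloid genes Saa1 and Saa2 were lower by -1.81 and -1.62.

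Macrophage markers rose without exception. All 18 Kupffer cell and macrophage markers tested were higher, with a median log2 difference of 2.93 and a range from 1.46 to 4.17, and their summed level was 620 to 840 normalised reads in the controls and 4922 to 5740 in the decitabine libraries. Cd5l, a secreted scavenger protein of Kupffer cells, stood at 105, 151 and 108 against 1643, 1222 and 1020 (log2 difference 3.40, SE 0.22, adjusted p = 3.60e-06). Clec4f, the most specific Kupffer cell marker in mice, stood at 110, 154 and 124 against 469, 382 and 376 (log2 difference 1.66, SE 0.17), and Timd4, a marker of resident Kupffer cells, was higher by 2.65. Markers of monocyte-derived cells were higher as well. Ccr2 stood at 2.06, 2.08 and 3.43 against 65.2, 19.5 and 69.1 (log2 difference 3.93, or 4.51 without decitabine library 2), and Cx3cr1 and Itgam were higher by 4.17 and 3.86. Every decitabine library exceeded every control in all of the 18, as the plot of macrophage markers shows. Over all genes tested the groups did not overlap, in either direction, in 63.8%.

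**Figure D4:**
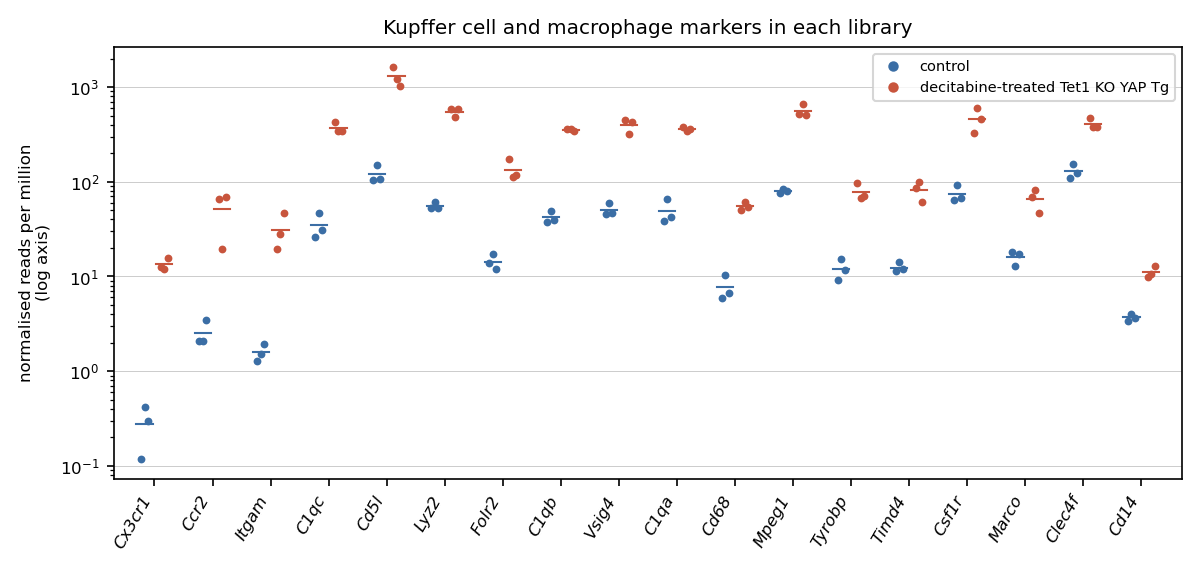
Normalised reads, in RPM (log axis) of the 18 Kupffer cell and macrophage markers in each library, ordered by their log2 difference; points are the 3 control (blue) and 3 decitabine (red) libraries and bars are group means. No marker has overlapping groups, against 63.8% of all genes tested without overlap, and the differences run from 4.17 (Cx3cr1) to 1.46 (Cd14).

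Part of the other leucocyte markers were higher, and many were too low to test. Of 16 neutrophil and myeloid precursor genes listed, 8 were tested, of which 7 were higher and 1 not called, and the summed level of the list was 6.98 to 10.1 in the controls and 54.2 to 109 in the decitabine libraries. Mmp9, a gelatinase of neutrophils, stood at 0.177, 0.509 and 0.361 against 13.1, 34.1 and 21.1 (log2 difference 4.69, SE 0.33). S100a9, one subunit of the neutrophil protein calprotectin, stood at 0.118, 0.324 and 0.120 against 9.59, 2.37 and 22.3 (log2 difference 3.68), with 4.48 without decitabine library 2 and 2.98 without library 3. Mpo and Ltf, granule genes, had no read in the controls and were at 0.294, 0.446 and 5.17 and at 1.25, 0.279 and 2.43 in the decitabine libraries. Decitabine library 3 was the highest for S100a9, Mpo and Ltf. Of 14 lymphocyte markers, 9 were higher and 5 not called (64.3% called, against 55.9% of all genes). Most of their summed level (35.3 to 44.7 against 214 to 306) came from the pan-leucocyte gene Ptprc (2.93). The T cell gene Cd3e was under 0.6 normalised reads in every library and was not tested.

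Markers of bile duct and progenitor cells were split. Of 10 tested, 5 were higher, 0 lower and 5 not called. The share called, 50%, was below the 55.9% of all genes. Spp1, osteopontin, stood at 54.1, 46.2 and 54.1 against 1708, 869 and 2756 (log2 difference 4.95, SE 0.35, adjusted p = 5.99e-06), and is also made by macrophages. Sox9, a factor of bile duct and progenitor cells, stood at 4.13, 2.96 and 4.27 against 8.15, 17.8 and 16.0 (log2 difference 1.70, SE 0.29, adjusted p = 0.00111), and Prom1 was higher by 3.72. Krt19 and Epcam, which define the bile duct epithelium, were not called (-0.02 and -0.50), and Krt7 and Cldn4 did not pass the filter. Of 22 stellate, fibroblast and matrix genes, 3 were higher (Col1a1, 1.77, Vim, 1.71 and Lum, 0.69), 7 lower (1 if doubled) and 12 not called (median -0.06), with Col3a1 at 0.06 and Acta2 at 0.17. Their share called, 45.45%, was also below that of all genes. Of 20 endothelial genes, 7 were higher, 5 lower (1 if doubled) and 8 not called, and 60% called is near the 55.9% of all genes. Their median of -0.15 was 0.22 with library totals, 0.33 per gene length and 0.04 without decitabine library 1. Stab1 (1.20) and Egfl7 (1.11) had the largest rises and Kdr the largest fall (-1.67, or -0.68 if doubled, with a recovered length of 1817 bases that is short for this receptor). Of 6 erythroid genes tested, 5 were called lower (3 if doubled), among them Alas2 (-2.74) and the haemoglobin genes Hba-a1 and Hba-a2. The identical values of Hba-a1 and Hba-a2, 68.4, 128 and 75.2 against 7.93, 6.41 and 6.11, show that they cannot be counted apart.

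Levels in the other transgenic groups are set beside these without a test, because they would share the control libraries and were quantified in another unit than the decitabine libraries. Ctgf averaged 19.12 in controls, 155 in YAP Tg livers, 23.1 in Tet1 KO YAP Tg livers without decitabine and 141 in decitabine-treated livers. Vgll3 averaged 0.221, 41.9, 0.174 and 40.8 in the same order, and Gpc3 1.76, 626, 10.5 and 464. Cyp2e1 averaged 7034, 87.4, 4813 and 101, and Ass1 1995, 417, 2011 and 185. In these 5 genes the decitabine mean was nearer to the YAP Tg mean than to that of untreated Tet1 KO YAP Tg. Other genes were placed differently, and all genes named here were chosen from those above after their values were seen. Ankrd1 averaged 67.5 in YAP Tg and 5.16 in the decitabine livers, and H19 174 and 9.15. Serpina3c averaged 0.0867 in YAP Tg, 153 in untreated Tet1 KO YAP Tg and 394 in decitabine-treated Tet1 KO YAP Tg livers. Cyp3a11 was low in all 3 transgenic groups, at 167, 101 and 87.8 on average, against 6147 in the controls. In a principal component analysis of 10063 genes over the 12 libraries, the first component (68.7% of the variance) placed controls at -65.1 to -60.3, untreated Tet1 KO YAP Tg at -48.5 to -46.5, YAP Tg at 42.6 to 43.2 and decitabine libraries at 60.4 to 73.5. The second (18.9%) set the decitabine libraries, at -42.3 to -28.2, apart from YAP Tg at 45.5 to 46.0.

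**Figure D5:**
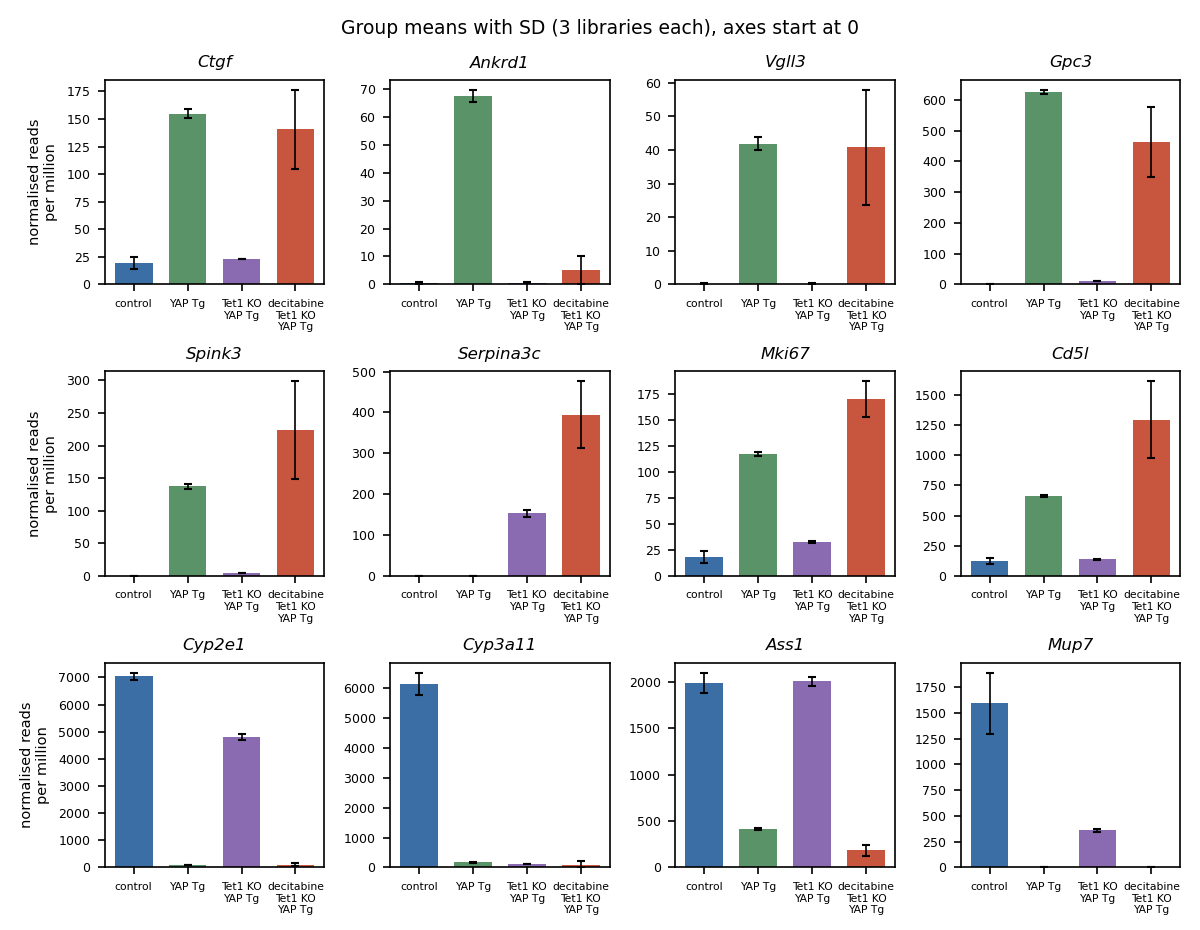
Mean normalised reads, in RPM (y axis from 0, scaled for each gene) of 12 genes in the 4 RNA groups, with the SD over 3 libraries as error bars. Vgll3, Ctgf, Gpc3 and Spink3 are high in YAP Tg and decitabine-treated livers and low in the other 2 groups, while Serpina3c is high only in the 2 Tet1 KO YAP Tg groups and Mup7 is near 0 in YAP Tg and decitabine-treated livers.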

How the data were processed

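12 RNA libraries of mouse liver were sequenced, and the 6 libraries labelled control or decitabine-treated Tet1 KO YAP Tg were compared. Per the submitters' processing notes the reads were processed with TopHat2, featureCounts and edgeR on mm10, in versions, order and options not given in the sources used here. The authors deposited 1 table of 18591 genes with gene coordinates, in which control columns are a scaled signal (RPM after scaling factors, from the values) and decitabine columns are TPM. The log2 fold changes the authors deposited do not concern this contrast and were not used.

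Every control value was a whole multiple of its column's step, which gave the reads. For decitabine columns the smallest whole reads and a gene length up to 120000 bases that gave all 3 values were taken, and came out whole in 17105 of 17105 genes (100%). Simulated data tested this recovery on 13672 genes, all averaging 10 reads or more. Of these, 92.4% were recovered exactly and 0% too large. Reads came out too small by a factor of 2 in 5.77%, by 3 in 1.10% and by more in 0.680%, so falls may be overstated. Lower genes were not scored, so these shares do not cover falls to very few decitabine reads, such as that of Mup2. "If doubled" means the same fit with all decitabine reads doubled.

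Reads were scaled by TMM (edgeR 4.0.16), and log2(value + 0.5) of genes with at least 0.5 in 3 of the 6 libraries was tested with limma 3.58.1 (R 4.3.3, intensity trend, two-sided, Benjamini-Hochberg over all genes, threshold 0.05). Fold changes are on that scale, which understates changes of low genes. The fit was tested on simulated data. Floors for genes without reads are 3 reads over the group. DESeq2 1.42.0 and edgeR's quasi-likelihood test on the recovered reads were alternatives, beside other scalings, filters, pseudocounts, a replicate block and leaving out each library. Tables and figures used Python 3.11.15, pandas 2.3.3, numpy 2.4.6, scipy 1.17.1 and matplotlib 3.10.9.

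The members and the 36 gene lists were chosen with earlier results of these data known. Genes are named where they are among the 10 largest rises or falls with groups apart and a higher mean of at least 5, among the 4 largest called changes of a list, members of the YAP/TEAD, Hippo, DNA methylation, decitabine handling, imprinted, oncofetal or sex-chromosome lists, members not called in a group described, or of the highest level. A few further members, such as Gapdh, Cdkn1a, Hnf4a and Clec4f, were added after their values were seen. Some genes that this rule selects are not reported here.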

Additional observations from a re-analysis of the deposited data

How the results depend on the processing

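Against 4167 higher and 3336 lower genes, library totals alone gave 6292 and 2166, TPM in both groups 6860 and 1798, a call that also needs a 2-fold difference 2357 and 1858, and doubled decitabine reads, chosen after seeing the data, 9615 and 1129. These scalings moved the median of all genes by 0.36, 0.47 and, for doubling, 0.95 on the log2 scale, and the share of calls that are higher from 55.5% to 74.4%, 79.2% and 89.5%. With RLE size factors that share was 49.8% (3702 higher, 3737 lower), with DESeq2 50.3% (3717 and 3667) and with edgeR's quasi-likelihood test 56.4% (4190 and 3236). Genes that overlap no other gene, also added after seeing the data, gave 3326 and 2625 of 10613. Leaving out 1 library gave 3229 to 4518 higher and 2624 to 3551 lower genes, with the lone pair taken to vary like the other group. Adding the reads of controls 1 and 3 together gave 3283 and 2672, all 12 libraries in the fit 5059 and 4084, no filter 4366 and 3563, and array quality weights 4618 and 3796. With TPM the differences of Lats1 (0.10), Stk3 (0.0531), Gnas (0.00912) and Uty (0.44) and the gluconeogenesis median (0.0525) changed sign, and the endothelial median did so at 0.22 with library totals, 0.33 with TPM and 0.0410 without decitabine library 1. The cause was not tested. With the replicate number as a block 3847 genes were higher and 3033 lower. Libraries of the same number did not deviate together over 10025 genes (correlations -0.121, -0.257 and -0.0154), none correlated best with its own number, and the labels do not tie them, so they share only a number. Annotated gene lengths were not at hand, so settling the factor by them was not run. Of 93 lower calls among named genes, 68 stay lower if doubled.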

Other observations

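Among genes with 1 control apart, Xist, the noncoding RNA that silences an X chromosome in female cells, stood at 13.0, 15.9 and 0.120 normalised reads in controls 1, 2 and 3 and at 0.257, 0.223 and 0.171 in the decitabine libraries, while the Y-linked Ddx3y stood at 223, 221 and 214 and at 258, 142 and 136. Nnat, an imprinted gene, stood at 8.31, 9.43 and 0.301 in the controls and 0.110, 0.0837 and 0 in the decitabine libraries, and Meg3 was likewise lowest in control 3. Rn45s, the ribosomal RNA precursor, took 7.82%, 0.148% and 6.44% of the reads of controls 1, 2 and 3 and 0.299%, 0.669% and 0.283% of the decitabine libraries, and was not called (log2 difference -2.73, adjusted p = 0.103 by limma). Scaling without Rn45s gave the same numbers of calls, 4167 higher and 3336 lower. Of 6 pancreas, adipose and gut genes tested, 1 was higher and 3 lower (1 if doubled).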
